A study of Mus musculus with 8 samples.

Results

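Histones are the proteins that package DNA, and their genes were compared between the cortexes of mice on a normal diet and of mice on a high fat diet (HFD). The members were the protein-coding genes of the expression table whose symbol began with Hist1h, Hist2h, Hist3h, Hist4h, H1f, H2af or H3f. By this rule 59 of the 13996 genes were histone genes, 49 replication-dependent genes of the 4 Hist groups and 10 replacement genes (H1f, H2af and H3f). GENCODE M21 annotates 82 protein-coding genes by the same rule, and the ones outside the table were not analysed here. All animals were male C57BL/6 mice, with no engineered allele named in the labels. The 4 normal mice received a conventional diet. The 4 HFD mice received a diet with 60% fat (wt/wt) for 8 weeks, and all were 16 weeks old at collection. Total RNA of each cortex was depleted of ribosomal RNA and sequenced as 1 stranded library per mouse, so p-values measured the spread between mice.

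A nucleosome holds a pair each of the core histones H2A, H2B, H3 and H4, and the linker histone H1 binds the DNA between nucleosomes. Replication-dependent genes supply these proteins in bulk during S phase from short, intronless genes whose mRNAs end in a stem-loop in place of a poly(A) tail. Replacement genes are transcribed throughout the cell cycle, mostly with poly(A) tails, and in neurons, which no longer divide, they supply the histones exchanged in existing chromatin. The libraries were not selected for poly(A), so both kinds of mRNA could enter them.

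The sequence that sets the replication-dependent class apart is the histone stem-loop, 16 bases in which 6 pair with 6 around a loop of 4. It was searched in the GENCODE M21 transcripts on the sense strand, and 48 of 21951 protein-coding genes (0.219%) held a match. Among the members it was found in 33 of 49 replication-dependent genes and in 1 of 10 replacement genes, H2afx. Transcript models that stop before the stem-loop cannot match, so an unmatched gene says only that these letters were not in its model. The forms of the genes described below and of H2afx are shown because they sort by family, with the paired bases in capitals and the loop in lower case, written as DNA.
Form of 17 genes of H1, H2A, H2B and H3, among them Hist1h1e and Hist1h2bg: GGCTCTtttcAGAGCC
Form of 6 H4 genes, among them Hist1h4h, Hist1h4d and Hist1h4f: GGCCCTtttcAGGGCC
Form of 5 H2B and H3 genes, among them Hist1h2bb and Hist1h2bk: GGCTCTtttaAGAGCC
Form of the H4 genes Hist1h4b and Hist1h4j: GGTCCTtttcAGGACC
Form of Hist2h2ac: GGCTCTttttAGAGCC
Form of H2afx: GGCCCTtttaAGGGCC
The H4 forms shown differ from the form of the 17 genes in the stem, and H2afx combines the stem of the 6 H4 genes with the loop of the form of Hist1h2bb.

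The values were FPKM, fragments scaled by gene length and by the size of the library, so that levels are per length of the gene model. Some models run past the stem-loop, by 4884 bases for Hist1h1d, 2445 for Hist4h4, 2010 for Hist1h2ac and 1861 for Hist1h2be. Where the mRNAs of these genes ended in the cortex was not measured. Levels between genes depend on the model, while each gene's comparison between diets uses 1 length. All 59 members passed the filter on low values, a mean FPKM of at least 1 with no value of 0, which 13982 genes of the table passed. Histone genes took on average 0.24% of the summed FPKM of a mouse. Mean levels ran from 1.13 FPKM for Hist1h3g to 201.7 FPKM for Hist1h4h. The H4 genes alone made up 60.8% of the summed FPKM of the replication-dependent genes, and Hist1h4h 18.9%. Among the replacement genes, H3f3a, H3f3b, H2afz and H1f0 together made up 75.6% of the sum.

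Markers of other brain regions differed between the diets, and their values stand here because they touch each result below. Markers of cortical projection neurons were present in every mouse, with sums of 264.6 to 404.4 FPKM in normal and 449.7 to 533.0 FPKM in HFD mice, and 5 of 6 were higher in HFD mice. Of the 8 cerebellar markers on the list 7 were in the table, and their sum was 18.0, 173.6, 234.8 and 56.6 FPKM in normal mice 1 to 4 and 12.8 to 15.1 FPKM in the HFD mice. Gabra6, a defining gene of cerebellar granule cells, was at 0 in at least 1 mouse. Striatal markers summed to 234.9 to 432.7 FPKM against 77.5 to 87.4 FPKM, with 8 of 8 lower in HFD mice. All 8 markers of myelin were lower as well, at 2050 to 3388 FPKM against 1421 to 1971 FPKM. Ependymal markers were lower in 4 of 4 and blood markers in 5 of 5, while 0 of 6 microglial markers passed the test. Thalamic markers summed to 78.7 and 68.8 FPKM in normal mice 2 and 3 and to 16.4 to 27.8 FPKM in the other mice. HFD mouse 4 stood apart in choroid plexus markers, with 944.2 FPKM against 21.1 to 77.2 FPKM in the other HFD mice and 343.8 to 728.0 FPKM in normal mice. The part of these marker differences in the histone results was not tested beyond the 2 alternative fits described last, which were built on the cerebellar markers alone.

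Differences between diets were tested with limma on log2(FPKM + 0.1), and a gene was called higher or lower at an adjusted p below 0.05. Of all genes tested, 33.1% were called, 17.7% higher and 15.3% lower in HFD mice, and the median log2 fold change was 0.00. Among the 59 histone genes 20 were called (33.9%), 7 higher and 13 lower, so the share was near that of all genes. By class, all 5 calls among the 10 replacement genes were lower, while the 15 calls among the 49 replication-dependent genes (30.6%) were 7 higher and 8 lower. A call with a change of more than 1.5-fold, up or down, was found in 3 members, against 7.13% of all genes. All 3 were replication-dependent genes with means under 10 FPKM: Hist1h2bl, Hist2h2ab and Hist1h3g. In bulk cortex, fewer cells of a type and less RNA per cell cannot be told apart.

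**Figure D1:**
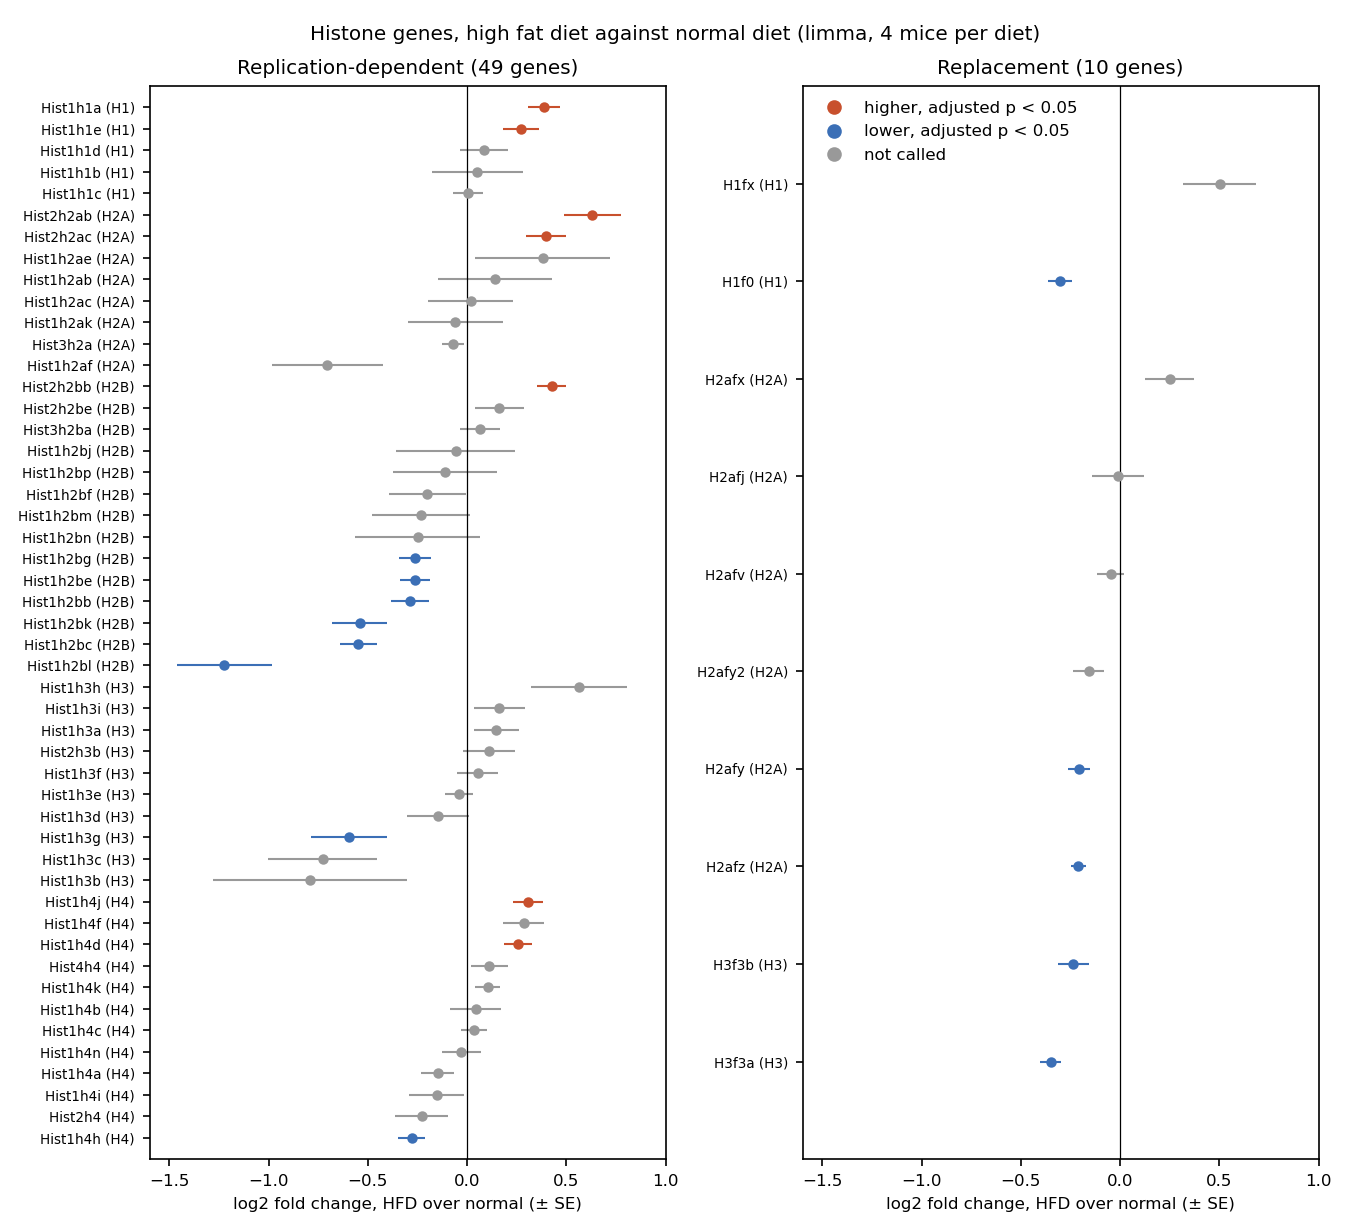
Log2 fold change of each histone gene, HFD over normal, with its standard error (limma, 4 mice per diet), replication-dependent genes on the left and replacement genes on the right, grouped by histone family. Genes at an adjusted p below 0.05 are red when higher and blue when lower; the called replacement genes are all blue, and the H2B genes of the Hist1 cluster lie to the left of 0.

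The replacement genes with the highest levels fell in the HFD mice. H3f3a and H3f3b are separate genes for the same protein, H3.3, the variant that replaces H3 outside of DNA replication. H3f3a (chr1:180800832-180813943, minus strand, GRCm38) measured 99.4, 107.5, 106.1 and 96.7 FPKM in the normal mice and 82.5, 76.3, 77.6 and 84.9 FPKM in the HFD mice. The groups did not overlap, which held for 14.7% of all genes in this direction and 17.2% in the other, 31.9% in all. The mean went from 102.4 ± 5.2 to 80.3 ± 4.05 FPKM (SD, n = 4 each), a log2 fold change of -0.35 (SE 0.05, adjusted p = 0.00181). For H3f3b (chr11:116021912-116027962, minus strand) the normal mice had 86.8, 103.1, 113.2 and 90.1 FPKM and the HFD mice 85.1, 83.0, 81.3 and 82.5 FPKM. Its highest normal values were in mice 2 and 3, the mice with the most cerebellar marker RNA, as were those of H3f3a. These mice were also the highest normal mice for H1f0, H2afy, Hist1h4h and the replacement sum below, though not for H2afz. The lowest normal mouse of H3f3b lay just above its highest HFD mouse. H3f3b was called lower at the margin (log2 fold change -0.24, SE 0.08, adjusted p = 0.0434), and the call was lost without normal mouse 2 or 3 or any 1 of the HFD mice (adjusted p up to 0.108).

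H2afz encodes H2A.Z, a variant placed around transcription start sites. It measured 73.7, 75.6, 73.5 and 74.5 FPKM in normal mice and 63.2, 63.3, 63.8 and 66.5 FPKM in HFD mice, with little spread and no overlap. The log2 fold change was -0.21 (SE 0.04, adjusted p = 0.00334). Of its 100-base transcript windows 58.8% occur letter for letter in 4 genes elsewhere, so how the authors' counting shared such reads bears on its level. H1f0, the linker histone H1.0 typical of cells that have stopped dividing, had 49.4, 50.8, 55.7 and 49.2 FPKM in normal mice and 43.4, 37.8, 42.0 and 43.0 FPKM in HFD mice. Again no HFD mouse reached the normal range, and the log2 fold change was -0.30 (SE 0.06, adjusted p = 0.00523). H2afy encodes macroH2A1, a large variant found in repressed chromatin. Its FPKM were 27.8, 30.7, 30.5 and 27.2 in normal and 25.3, 23.9, 25.3 and 25.9 in HFD mice, without overlap (log2 fold change -0.21, SE 0.05, adjusted p = 0.0168), and the call was lost without HFD mouse 2 (adjusted p = 0.0521).

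The other 5 replacement genes were not called. Their log2 fold changes were -0.05 for H2afv (the second H2A.Z gene), -0.01 for H2afj, 0.25 for H2afx (the variant phosphorylated at DNA breaks), -0.16 for H2afy2 (macroH2A2) and 0.50 for H1fx. H1fx, a linker histone and the replacement gene with the lowest mean, had 3.9, 4.8, 3.2 and 5.2 FPKM in normal and 6.2, 6.9, 7.0 and 4.3 FPKM in HFD mice (SE 0.18, adjusted p = 0.0624). HFD mice 1 to 3 lay above the normal range and HFD mouse 4, the mouse with high choroid plexus markers, within it. That mouse was also the lowest HFD mouse for H2afj (13.4 FPKM) and H2afx (10.9 FPKM), and the part of these markers in that was not tested. The replacement class held values on both sides of 0, with a median log2 fold change of -0.18 and 8 of 10 genes below 0. With the cerebellar markers as a covariate the class median turned to 0.06, and 6 of 10 genes kept their sign.

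**Figure D2:**
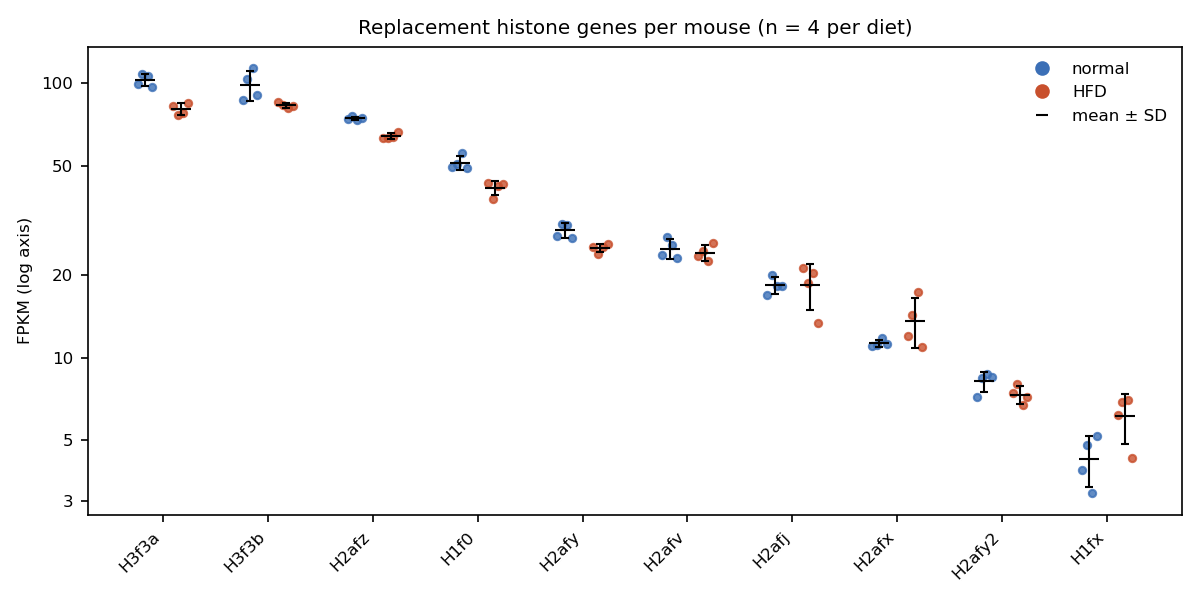
FPKM of the 10 replacement histone genes in each mouse on a log axis, blue for normal and red for HFD, with black bars for the mean and SD of 4 mice. The HFD points lie below all normal points for H3f3a, H3f3b, H2afz, H1f0 and H2afy, and the groups overlap for the other 5 genes.

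The class sums restate the values of the same members, and 75.6% of the replacement sum came from H3f3a, H3f3b, H2afz and H1f0. The replication-dependent sum was 1037, 1110, 1062 and 1037 FPKM in normal and 1106, 1003, 1146 and 1039 FPKM in HFD mice, and the groups overlapped fully (1061 ± 34.2 against 1073 ± 64.6, a ratio of 1.01). The replacement sum was 399.8, 439.5, 446.5 and 403.8 FPKM in normal and 369.7, 356.6, 363.9 and 364.7 FPKM in HFD mice, which did not overlap (422.4 ± 24.0 against 363.7 ± 5.4, a ratio of 0.861). These sums were chosen with the members' values known and have no test. Within the replacement class, the ratio was 0.858 for H1, 0.920 for H2A and 0.814 for H3. As a share of all H1 FPKM, the replacement genes went from 43.8% ± 1.54 to 37.2% ± 2.05. For H3 the share was 73.2% ± 1.72 and 68.5% ± 2.53, and for H2A 71.7% ± 2.06 and 67.8% ± 2.18. The shares depend on the lengths of the gene models.

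**Figure D3:**
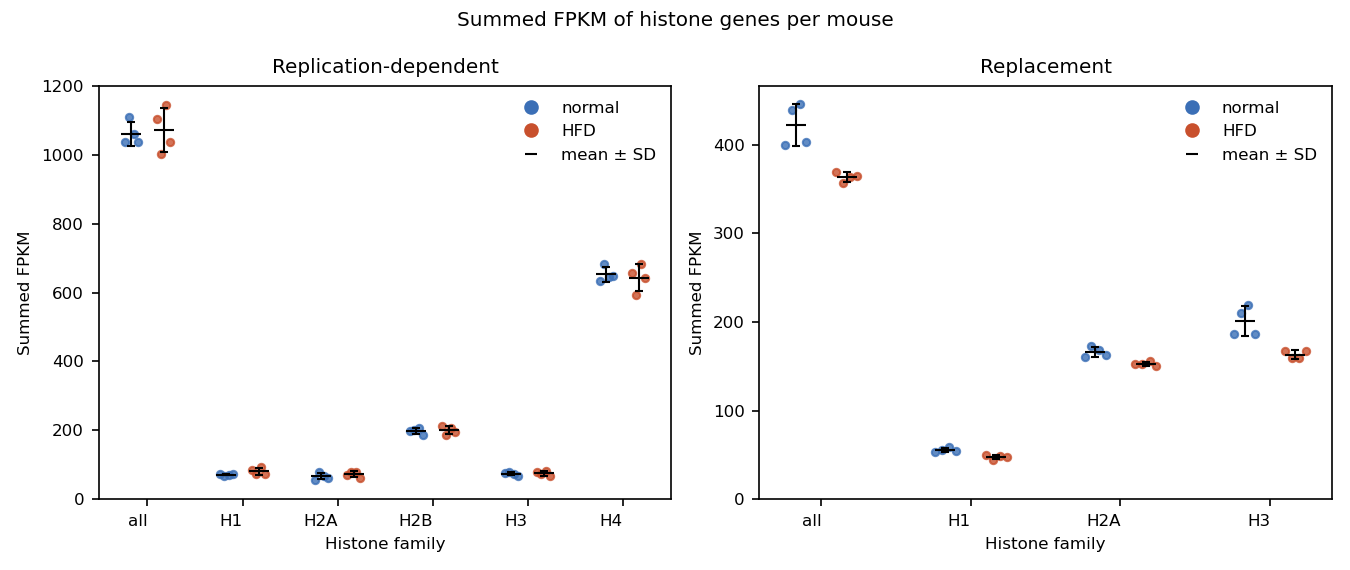
Summed FPKM of the replication-dependent (left) and replacement (right) histone genes per mouse, for each class and each family, blue for normal and red for HFD, with bars for the mean and SD of 4 mice. The replication-dependent sums overlap between diets in every family, and the replacement sums of HFD mice lie below those of normal mice in every family.

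Among the replication-dependent linker histones, 2 of 5 were called, both higher, beside 17.7% of all genes called higher. Hist1h1a, the gene for H1.1, measured 12.9, 11.5, 11.5 and 12.6 FPKM in normal and 15.2, 15.7, 18.4 and 14.4 FPKM in HFD mice. No normal mouse reached the lowest HFD mouse, and the log2 fold change was 0.39 (SE 0.08, adjusted p = 0.00645). Hist1h1e, the gene for H1.4, had 23.7, 24.0, 26.9 and 24.6 FPKM against 32.4, 26.6, 34.5 and 26.9 FPKM. The groups touched, with HFD mice 2 and 4 at the top of the normal range, and the call was at the margin (log2 fold change 0.27, SE 0.09, adjusted p = 0.0417). Leaving out normal mouse 1, 2 or 4 or HFD mouse 1 or 3 ended the call (adjusted p up to 0.107). Its annotated exons share 496 bases on the same strand with the long model of Hist1h2be, which moved in the opposite direction, and reads from those bases cannot be assigned to 1 of the genes. The remaining linker genes, Hist1h1b, Hist1h1c and Hist1h1d, had log2 fold changes between 0.00 and 0.08.

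Of the 8 replication-dependent H2A genes, both calls were in the Hist2 cluster on chromosome 3. In this cluster 3 of 6 genes were higher and 0 lower, beside 17.7% and 15.3% of all genes. Hist2h2ab measured 4.2, 6.2, 4.8 and 4.1 FPKM in normal and 7.1, 8.0, 8.6 and 6.2 FPKM in HFD mice. The lowest HFD mouse equalled the highest normal mouse at the 0.1 FPKM to which the values were rounded. Its log2 fold change was 0.63 (SE 0.14, adjusted p = 0.00966). The annotated exons of the antisense gene Gm15444 overlap those of Hist2h2ab. The sources do not say whether reads were counted by strand, so part of the level of Hist2h2ab could come from Gm15444. Hist2h2ac, which encodes a core H2A on the opposite strand a short distance away, had 16.0, 21.5, 20 and 16.1 FPKM against 24.2, 25.6, 25 and 21.6 FPKM. The groups stood apart by 0.1 FPKM, and the log2 fold change was 0.40 (SE 0.10, adjusted p = 0.0167, or 0.0503 without HFD mouse 2). Hist2h2bb, an H2B gene and the fourth highest replication-dependent gene, had 56.7, 68.5, 63.6 and 58.7 FPKM in normal and 87.7, 74.6, 87.2 and 83.1 FPKM in HFD mice. All HFD mice were above all normal mice (61.9 ± 5.28 against 83.2 ± 6.06 FPKM), with a log2 fold change of 0.43 (SE 0.07, adjusted p = 0.00295).

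Hist2h2bb (chr3:96269752-96270132, plus strand) lies within the annotated exons of the antisense gene Gm20628 over 381 bases, and shares 226 bases with the lincRNA Gm42743 on the same strand. Neither was in the table, and the sources do not say whether the authors counted by strand, so part of its level could come from either. None of its 100-base windows occurs elsewhere. The other 3 genes of the cluster, Hist2h2be, Hist2h3b and Hist2h4, were not called, with log2 fold changes of 0.16, 0.11 and -0.23. The sum of the 6 genes was 110.6 ± 12.6 FPKM in normal and 139.5 ± 8.45 FPKM in HFD mice, without overlap, and most of it was Hist2h2bb.

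The H2B genes of the Hist1 cluster on chromosome 13 went the other way. Of these 11 genes, 6 were called lower and 0 higher, all 11 log2 fold changes were below 0, and their median was -0.26, beside 15.3% of all genes called lower. They are not fully separate readings, since 25.4% of the 100-base windows of Hist1h2bc, 32.8% of Hist1h2bb and 44.9% of Hist1h2bg recur in other H2B genes. Hist1h2bc measured 25.5, 21.3, 24.1 and 22.7 FPKM in normal and 18.2, 15.2, 17.1 and 13.6 FPKM in HFD mice, a log2 fold change of -0.55 (SE 0.09, adjusted p = 0.00293). Its groups did not overlap. Hist1h2bl had 2.4, 3.9, 3.0 and 2.8 FPKM against 1.7, 1.6, 0.8 and 1.0 FPKM, the largest called change of any member (log2 fold change -1.22, SE 0.24, adjusted p = 0.00524). Hist1h2bk had 2.4, 2.0, 2.2 and 2.1 FPKM against 1.5, 1.8, 1.4 and 1.2 FPKM (log2 fold change -0.54, SE 0.14, adjusted p = 0.0158). Both low genes were without overlap, but 62.1% and 70.8% of their 100-base windows recur in other histone genes, so part of their reads could have been placed in either copy. Over 25% of the windows recurred elsewhere in 26 of the 49 replication-dependent genes, among them 7 of the 15 called.

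The last 3 of the 6 changed by less. Hist1h2bb measured 24.8, 24.0, 19.5 and 20.8 FPKM in normal and 17.9, 18.5, 15.9 and 20.5 FPKM in HFD mice, and HFD mouse 4 lay within the normal range (log2 fold change -0.29, SE 0.10, adjusted p = 0.0431). Hist1h2bg had 19.2, 16.2, 18.7 and 19.2 FPKM against 17.1, 15.6, 14.0 and 14.4 FPKM, overlapping through normal mouse 2 (log2 fold change -0.26, SE 0.08, adjusted p = 0.0306). Hist1h2be had 4.8, 4.9, 4.4 and 4.8 FPKM against 3.6, 3.9, 4.3 and 3.9 FPKM, apart by 0.1 FPKM (log2 fold change -0.26, SE 0.08, adjusted p = 0.0281). Hist1h2bb lost its call without normal mouse 1 or 2 or HFD mouse 1, 2 or 3 (adjusted p up to 0.109), Hist1h2bg without normal mouse 1, 3 or 4 or HFD mouse 2, 3 or 4 (up to 0.0764), and Hist1h2be without normal mouse 1, 2 or 4 or HFD mouse 1, 2 or 4 (up to 0.0741). With Hist2h2bb, the highest H2B gene, included, the summed H2B level was 197.9 ± 8.69 FPKM in normal and 200.5 ± 11.1 FPKM in HFD mice.

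**Figure D4:**
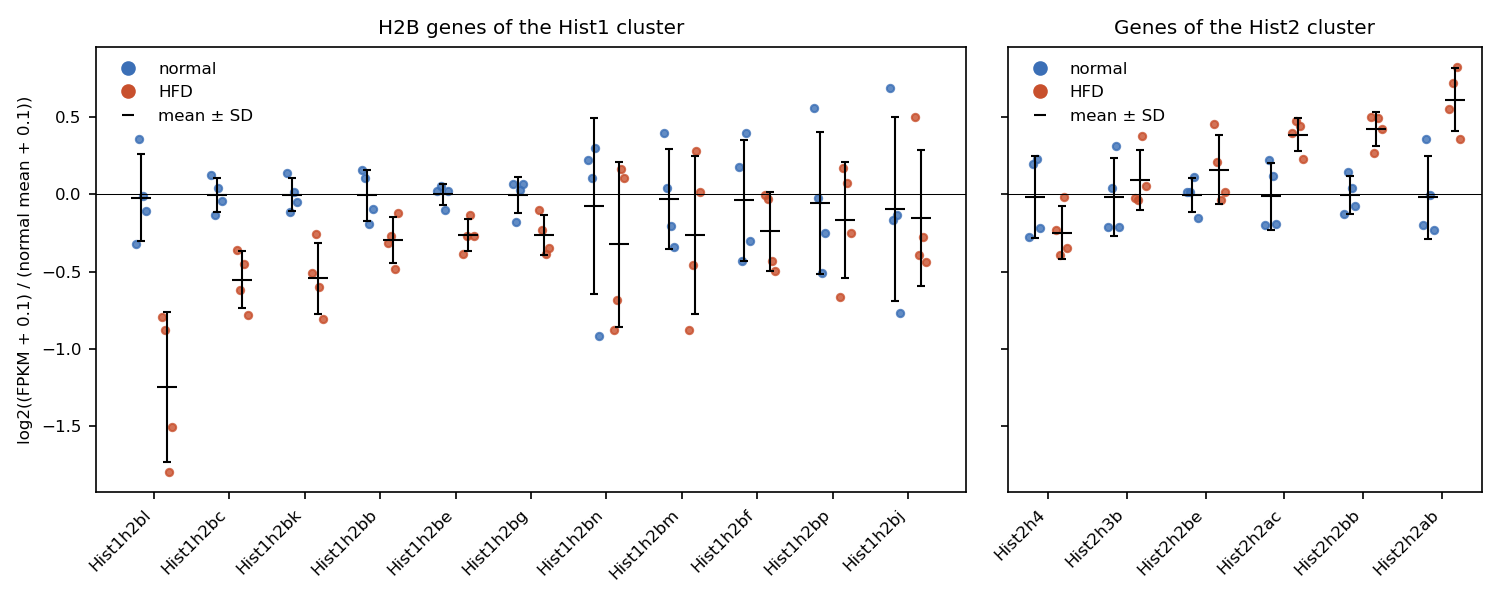
Log2 of FPKM + 0.1 relative to the mean of the normal mice, for the 11 H2B genes of the Hist1 cluster (left) and the 6 genes of the Hist2 cluster (right), with 1 point per mouse and bars for the mean and SD of 4 mice. The HFD means of the Hist1 H2B genes lie below 0, with wide spread for the 5 genes that were not called, while Hist2h2ab, Hist2h2ac and Hist2h2bb lie above 0.

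Promoter windows of RefSeq (GRCm38.p6, 250 bases before to 50 after the start) were matched to 53 of the 59 members and searched on both strands for 3 motifs. CCAAT, read as ATTGG on the other strand, was in 36 of 44 replication-dependent windows (81.8%), in 6 of 9 replacement windows (66.7%) and in 37.4% of 32851 RefSeq promoters. TATAA, read as TTATA on the other strand and known as the core of the TATA box, was in 81.8% of replication-dependent windows, in 1 of 9 replacement windows and in 24.9% of all. A window with the letters in both directions was counted once. The octamer ATTTGCAT, read as ATGCAAAT on the other strand and known as an element of H2B promoters, was in 5 of 12 H2B windows, in 5 of 8 H2A windows and in 1.74% of all. The H2A and H2B counts are not fully separate, because neighbouring genes on opposite strands can share most of a window. Hist1h2bg (chr13:23571150-23571449) and Hist1h2ae (chr13:23571171-23571470) do, and the same octamer counts for both. Among the H4 windows CCAAT was in 3 of 11, and among those of the other replication-dependent families in every window. The windows below belong to H2B and H2A genes that changed in opposite directions and to the replacement gene with the largest called change, with motif matches in capitals. They are descriptions of letters and no binding was measured.
Hist2h2bb, chr3:96269450-96269749, plus strand, higher in HFD mice: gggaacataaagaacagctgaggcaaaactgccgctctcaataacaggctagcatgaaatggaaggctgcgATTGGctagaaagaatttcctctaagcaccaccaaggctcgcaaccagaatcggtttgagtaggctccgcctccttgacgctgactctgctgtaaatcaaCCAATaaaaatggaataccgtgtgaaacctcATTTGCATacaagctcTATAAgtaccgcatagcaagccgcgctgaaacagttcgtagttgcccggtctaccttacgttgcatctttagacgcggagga
Hist2h2ac, chr3:96220831-96221130, minus strand, higher: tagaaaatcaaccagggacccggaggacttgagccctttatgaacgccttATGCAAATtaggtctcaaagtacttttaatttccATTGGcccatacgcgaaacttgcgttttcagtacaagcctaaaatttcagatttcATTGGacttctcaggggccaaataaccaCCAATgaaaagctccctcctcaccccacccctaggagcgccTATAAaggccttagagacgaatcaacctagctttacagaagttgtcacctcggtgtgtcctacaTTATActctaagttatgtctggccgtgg
Hist1h2bk, chr13:22035571-22035870, plus strand, lower: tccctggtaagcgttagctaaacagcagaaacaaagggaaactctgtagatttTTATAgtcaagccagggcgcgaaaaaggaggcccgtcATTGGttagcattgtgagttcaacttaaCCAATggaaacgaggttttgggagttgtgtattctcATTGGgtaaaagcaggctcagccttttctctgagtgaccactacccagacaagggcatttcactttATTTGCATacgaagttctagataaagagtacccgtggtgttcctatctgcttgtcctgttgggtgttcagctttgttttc
Hist1h2bl, chr13:21716134-21716433, minus strand, lower: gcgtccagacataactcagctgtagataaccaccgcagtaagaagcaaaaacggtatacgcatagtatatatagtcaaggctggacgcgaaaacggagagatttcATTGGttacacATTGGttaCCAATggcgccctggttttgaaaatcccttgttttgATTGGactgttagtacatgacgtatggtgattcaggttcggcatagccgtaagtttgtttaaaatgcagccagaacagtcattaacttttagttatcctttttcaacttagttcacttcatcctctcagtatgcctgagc
H3f3a, chr1:180813556-180813855, minus strand, lower: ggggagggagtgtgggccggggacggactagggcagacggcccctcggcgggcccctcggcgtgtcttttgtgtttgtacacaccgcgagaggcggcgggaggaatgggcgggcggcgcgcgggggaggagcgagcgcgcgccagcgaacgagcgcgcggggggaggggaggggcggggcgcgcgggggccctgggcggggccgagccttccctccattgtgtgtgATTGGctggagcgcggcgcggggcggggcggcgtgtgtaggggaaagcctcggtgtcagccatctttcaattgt
Hist2h2bb, which rose, and Hist1h2bk, which fell, both held letters of all 3 motifs, and Hist1h2bl, which fell, held CCAAT alone. H3f3a held 1 CCAAT match and neither of the others. The TATAA match of Hist1h2bk was on the other strand (TTATA), near the upstream end of its window. That of Hist2h2bb was on the gene's strand, near its start. Distance from the start was not weighed in the counts, and a relation of motifs to the direction of change was not tested. Of the replication-dependent genes, 9 of 33 with a stem-loop match (27.3%) and 6 of 16 without one (37.5%) were called. Both shares lay near the 33.1% of all genes.

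The H4 genes, which encode the same or nearly the same protein, were called in both directions. They are not fully separate readings, since 38.5% of the transcript windows of Hist1h4h and 19.0% of those of Hist1h4j recur in other genes. None of the windows of Hist1h4d does. Hist1h4h, the most abundant histone gene of the table, measured 200.4, 249.4, 225.9 and 210.4 FPKM in normal and 188.3, 175.7, 187.5 and 176.2 FPKM in HFD mice. The groups did not overlap (221.5 ± 21.3 against 181.9 ± 6.91 FPKM), and the log2 fold change was -0.28 (SE 0.07, adjusted p = 0.0136). Hist1h4d had 60.2, 64.4, 62.1 and 64.4 FPKM against 74.9, 65.9, 85.3 and 74.8 FPKM, a log2 fold change of 0.26 (SE 0.07, adjusted p = 0.0227, or 0.0522 without HFD mouse 1). HFD mouse 2 was closest to the normal mice. Hist1h4j had 7.8, 8.6, 8.5 and 9.3 FPKM against 9.8, 9.9, 11.3 and 11.4 FPKM (log2 fold change 0.31, SE 0.08, adjusted p = 0.0142). The next most abundant genes, Hist1h4c and Hist1h4f, were not called. Hist1h4c had 100.8, 97.6, 99.4 and 102.7 FPKM against 106.5, 88.7, 106.6 and 110.0 FPKM (log2 fold change 0.04, adjusted p = 0.708). For Hist1h4f the values were 84.1, 70.0, 63.1 and 72.6 FPKM against 96.4, 77.7, 98.1 and 80.8 FPKM (log2 fold change 0.28, adjusted p = 0.0567). The groups of both overlapped. With a fall in Hist1h4h beside rises in Hist1h4d and Hist1h4j, the summed H4 level was 652.9 ± 21.03 FPKM in normal and 643.8 ± 38.5 FPKM in HFD mice, which overlapped.

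Of the 10 replication-dependent H3 genes, 1 was called, beside 33.1% of all genes, and it was the member with the lowest level. Hist1h3g had 1.6, 1.2, 1.1 and 1.6 FPKM in normal and 0.8, 1.1, 0.9 and 0.7 FPKM in HFD mice, meeting at 1.1 (log2 fold change -0.60, SE 0.19, adjusted p = 0.0382). The call was lost without normal mouse 1, 2 or 4 or HFD mouse 1, 3 or 4 (adjusted p up to 0.0891), and steps of 0.1 FPKM are coarse at this level. Of the transcript windows of Hist1h3g, 37.1% recur in other H3 genes. Over the 34 replication-dependent genes that were not called, log2 fold changes ran from -0.79 to 0.56, and 4 of them had an unadjusted p below 0.05. Spread was wider at low levels: the median coefficient of variation among normal mice was 21.1% for the 19 members under 5 FPKM and 7.96% for the 32 members of at least 10 FPKM (27.1% and 10.5% among HFD mice).

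Genes that act on histone mRNAs and histones were counted on lists. Of 13 genes for histone mRNA transcription and 3′ end processing in the table, 0 were higher and 2 lower, with a median log2 fold change of -0.12, beside 17.7% higher, 15.3% lower and a median of 0.00 over all genes. Cpsf2, part of the complex that cleaves histone pre-mRNA, had a log2 fold change of -0.23 (adjusted p = 0.00960), and Lsm11, a protein of the U7 particle that recognises it, of -0.35 (adjusted p = 0.0109). Lsm11 measured 7.6, 8.4, 7.7 and 7.5 FPKM in normal and 5.8, 5.7, 7.1 and 5.9 FPKM in HFD mice, without overlap. Both calls were lost with the cerebellar markers as a covariate and without normal mice 2 and 3. Of 27 chaperones and deposition factors, 5 were higher and 7 lower, with a median of -0.08. Among the 5 with the smallest adjusted p were Set (log2 fold change -0.29, adjusted p = 0.00137) and Nap1l2 (-0.29, adjusted p = 0.00273), both nucleosome assembly proteins, which fell. Cabin1, a partner of the H3.3 chaperone HIRA, rose (0.38, adjusted p = 0.00236), as did Srcap (0.51, adjusted p = 0.00295) and Ep400 (0.36, adjusted p = 0.00345), the ATPases of complexes that insert H2A.Z. Among other factors of the list, Hira had 0.09 (adjusted p = 0.515) and Vps72, which binds H2A.Z, -0.04 (adjusted p = 0.685), while Asf1a, an H3-H4 chaperone, was called lower (-0.46, adjusted p = 0.0181). Ubn1 (0.16, adjusted p = 0.0379) and Ubn2 (0.19, adjusted p = 0.0329) were called higher. The remaining calls, Rbbp7, Nap1l3, Supt16 and Npm1, were lower. With the cerebellar markers as a covariate 2 of the 27 passed, and of the genes named here Ep400 was the one that did (0.58, adjusted p = 0.0211).

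Markers of dividing cells were mostly outside the table. Of the 23 genes of DNA replication and proliferation on the list, 12 were not in the table, among them Mki67 and Top2a, and 11 were, 0 higher and 3 lower, beside 15.3% of all genes called lower (median log2 fold change -0.12). Mcm2, a subunit of the replicative helicase, had a log2 fold change of -0.44 (adjusted p = 0.0210), cyclin E2 (Ccne2) of -0.50 (adjusted p = 0.0320) and Pcna, the sliding clamp, of -0.16 (adjusted p = 0.0337). Pcna measured 24.0 to 24.3 FPKM in normal and 20 to 22.9 FPKM in HFD mice. Ccne2 measured 2.3, 3.2, 3.9 and 2.7 FPKM in normal and 2.1, 2.1, 1.9 and 2.2 FPKM in HFD mice, highest in the normal mice with the most cerebellar marker RNA, and turned to 0.08 with those markers as a covariate. No gene of the list was called with the covariate, nor without normal mouse 2, normal mouse 3 or HFD mouse 2.

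Of the marker differences between diets, those of the cerebellar markers were carried into 2 alternative fits. The striatal difference was not taken up by either. All 8 striatal markers were still called with the cerebellar covariate, and normal mouse 1, with the highest striatal sum (432.7 FPKM), stayed in the second fit. With the mean relative log2 level of the cerebellar markers as a covariate, 2.67% of all genes were called, and of the 59 histone genes 2, Hist2h2bb (log2 fold change 0.61, adjusted p = 0.0355) and Hist2h2ac (0.74, adjusted p = 0.0343). No replacement gene passed. The fold change of H3f3a shrank from -0.35 to -0.24 (adjusted p = 0.154) and that of H1f0 from -0.30 to -0.19 (adjusted p = 0.303), H2afz had -0.20 (adjusted p = 0.137), and H3f3b turned to 0.07 (adjusted p = 0.658). H2afy shrank from -0.21 to -0.07 (adjusted p = 0.682) and Hist1h4h from -0.28 to -0.07 (adjusted p = 0.707). The sign was kept in 19 of the 20 called genes, in 40 of all 59 members and in 6 of the 10 replacement genes. The covariate lay between -0.54 and 3.02 in normal and between -1.79 and -1.32 in HFD mice, so it did not overlap between diets and could be told apart from diet only in part. Without normal mice 2 and 3, a choice made after seeing the data, 19.7% of all genes were called and 10 of the 20 histone calls held, 7 replication-dependent and 3 replacement. H3f3a (-0.29, adjusted p = 0.0139), H2afz (-0.21, adjusted p = 0.0185) and H1f0 (-0.25, adjusted p = 0.0316) were among them, and H3f3b (-0.09, adjusted p = 0.182) and Hist1h4h (-0.18, adjusted p = 0.0577) were not. Hist2h2bb (0.52, adjusted p = 0.00530), Hist2h2ac (0.58, adjusted p = 0.00440) and Hist1h2bc (-0.59, adjusted p = 0.0132) had changes at least as large as with all mice.

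**Figure D5:**
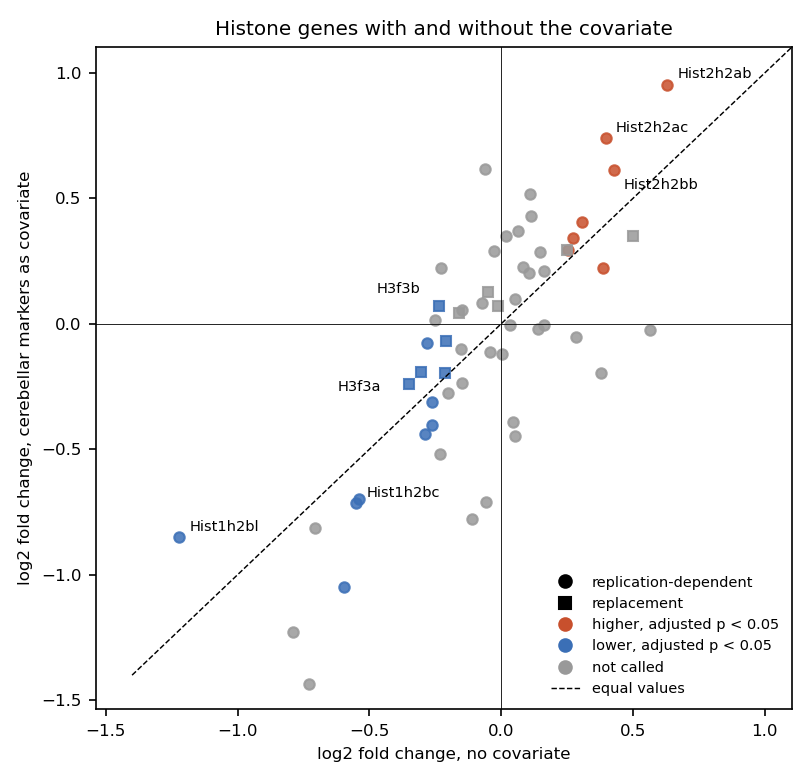
Log2 fold change of each histone gene, HFD over normal, without (x axis) and with (y axis) the cerebellar markers as covariate, circles for replication-dependent and squares for replacement genes, colored by the call without the covariate. Hist2h2ac and Hist2h2bb lie above the dashed line of equal values, and H3f3b moves from below 0 to 0.07.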

How the data were processed

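RNA of 8 mouse cortexes, 4 on a normal diet and 4 on a high fat diet, was sequenced as paired 100-cycle reads of rRNA-depleted, stranded libraries. The deposited values are FPKM that the authors made with FastQC, Trimmomatic, STAR and Cuffnorm on mm10 with GENCODE M17, rounded to 0.1. Tool versions and the use of strand in counting were not given in the sources used here. FPKM keep no read counts, so depth is unknown and counting intervals were not computed. Sums of FPKM lay between 562431 and 639142.

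Here log2(FPKM + 0.1) of 13982 genes (mean FPKM of at least 1, no 0; 14 genes left out) entered two-sided tests in limma (3.58.1, under R 4.3.3) with its trended prior variance, and p-values were adjusted by Benjamini-Hochberg across all of these genes. On simulated data of 13982 genes for this comparison, 62 of 100 genes changed 1.5-fold and 92 of 100 changed 2-fold were recovered, and 7 unchanged genes were called. All other genes were simulated without a change, while 33.1% of genes were called in the data. Changes smaller than 1.5-fold were not simulated, so these shares do not carry over directly to the histone genes. Coordinates and transcripts come from GENCODE M21 (GRCm38) and promoters from RefSeq (GRCm38.p6). Python 3.11.15 made tables and figures.

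Members and lists were chosen with earlier results of these data known. Named were all members at an adjusted p below 0.05 and the 3 highest and the lowest of each class. Of each pathway list, up to 5 genes past the threshold were named. For the chaperones, the other called genes and Hira and Vps72 were added. Other members were given by range or, in small families, by fold change. Sums had no test. Alternatives were another constant, filters, scalings, no variance trend, a GC and length correction, a replicate block, a marker covariate and leaving out mice. Salmon and edgeR, used by the authors for a second set of values, were not used here.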

Additional observations from a re-analysis of the deposited data

Results flagged for a closer look

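Of the 50 groups of 4 mice examined among the named members and the class sums, 2 held a mouse far from the other 3 by Dixon's criterion, which chance gives in about 1 of 20 groups. Hist1h2bg measured 16.2 FPKM in normal mouse 2 and 18.7 to 19.2 FPKM in the other normal mice. Hist1h4c measured 88.7 FPKM in HFD mouse 2 and 106.5 to 110.0 FPKM in the other HFD mice.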

How the results depend on the processing

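Called genes numbered 15 replication-dependent and 5 replacement members, 2 processing genes, 12 chaperones and 3 proliferation genes, and the other constant, no filter and median-ratio scaling moved none of these counts beyond 1.5 times. With the marker covariate they became 2, 0, 0, 2 and 0, and without normal mice 2 and 3 (chosen after seeing the data) 7, 3, 0, 8 and 0. At a mean FPKM of at least 5, 1 proliferation gene was called. Leaving out 1 mouse at a time gave 11 to 15 replication-dependent, 3 to 6 replacement, 2 to 4 processing, 10 to 12 chaperone and 0 to 3 proliferation calls. Of the 20 called members, 11 passed all 8 of these fits. The replacement count fell to 3 without HFD mouse 2, and the proliferation count to 0 without normal mouse 2, normal mouse 3 or HFD mouse 2 and to 1 without HFD mouse 4; the processing count rose to 4 without HFD mouse 4. Under the covariate the log2 fold change turned to 0.071 for H3f3b, -0.0032 for Hist1h4c and -0.054 for Hist1h4f. The replicate numbers do not pair the mice: deviations of same-numbered mice correlated at -0.04, -0.03, -0.11 and -0.07. With the replicate block 12 replication-dependent, 3 replacement, 3 processing, 9 chaperone and 0 proliferation genes were called, and with the block and the GC and length correction 13, 3, 3, 6 and 1. Over 19 settings, 342 of 433 results of the 23 named members kept direction and side of the threshold, 82 lost it, 6 gained it and 3 reversed. The cause of these changes was not tested. FPKM rounded to 0.1 and without depth limit what low genes can show.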

Other observations

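Histone genes often lie head to head, so that neighbours share the stretch between their starts, and 4 such pairs had both members in the table with starts at most 500 bases apart. These pairs were looked at after the values were seen, and they are given as values without a test. Hist1h2bc and Hist1h2ac, 251 bases apart, had log2 fold changes of -0.55 and 0.02. Hist2h2ac and Hist2h2be, 239 bases apart, had 0.40 and 0.16. For Hist1h2bg and Hist1h2ae, 176 bases apart, the values were -0.26 and 0.38, with an SE of 0.34 for the second. For Hist1h2bn and Hist1h2ak, 296 bases apart, they were -0.25 and -0.06. In 3 of the pairs 1 gene was called and its neighbour was not, and a difference between neighbours was not tested.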
